A study of Mus musculus with 8 samples.

Results

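Matrix metalloproteinases and their tissue inhibitors (TIMPs) were followed in sham-operated and pressure-overloaded mouse hearts through 10 genes. They were taken by symbol from the 32285 genes listed in the count tables, and each symbol had a single row. 6 of them encode metalloproteinases (Mmp2, Mmp3, Mmp8, Mmp9, Mmp12 and Mmp14) and 4 encode inhibitors (Timp1, Timp2, Timp3 and Timp4). All 10 were detected in both the heart sections and the cell libraries, but from different cells. With cells named by cluster, Mmp2, Mmp3, Mmp14, Timp1 and Timp2 were highest in fibroblast-like cells and Mmp8 and Mmp9 in neutrophil-like cells. Mmp12 was highest in dendritic-like or, in 1 library, macrophage-like cells, and Timp3 and Timp4 in endothelial-like cells. In the section taken 6 weeks after the operation, Mmp2, Mmp14 and Timp1 stood at 1.73, 1.79 and 2.35 times their sham level and Mmp3 at 0.312 times it. By the labels, that section was in another batch than sham. Divided by the median ratio of all genes above a minimum count, these values were, in the same order, 1.40, 1.45, 1.90 and 0.252.

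Matrix metalloproteinases are zinc-dependent enzymes that cleave collagens, elastin, proteoglycans and other proteins of the extracellular matrix, and most of them are made as inactive proenzymes that have to be opened. TIMPs bind the active site of the opened enzymes and block it. In the heart, the enzymes and their inhibitors are known for their part in the turnover of the interstitial matrix during fibrosis and chamber dilation, and RNA counts do not report enzyme activity.

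Every sample came from male wild type C57BL/6J mice that were 8 weeks old at the start. Transverse aortic constriction (TAC), a ligature that narrows the aortic arch and loads the left ventricle with pressure, was applied in 3 groups, whose hearts were taken 2, 4 and 6 weeks later (TAC-2w, TAC-4w and TAC-6w). Surgery without constriction was done in the sham group, and the time at which its hearts were taken is not given in the labels. Each of the 4 groups had 1 Visium section, in which RNA is counted in barcoded spots that each can hold several cells, and 1 droplet library of single cells, so no group had a replicate and no test between groups was possible. By the labels, the sham and TAC-2w sections shared a batch, as did the sham and TAC-6w libraries, and in every other comparison with sham the batch and the condition cannot be told apart. For the sham and TAC-2w libraries, panel titles in the study name other batches than the labels do, and the labels were followed. Where 4 values follow each other below, they are in the order of sham, 2, 4 and 6 weeks.

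The sections held 1228 to 2193 spots and 25996378 to 48754396 UMIs (unique molecular identifiers, 1 for each RNA molecule read), with 42.4% to 51.8% of the UMIs on mitochondrial genes and features like ribosomal RNA, the highest share being that of sham. The cardiomyocyte genes Myh6 and Tnnt2 stood at 3770.3 to 8043 and 3083 to 3879 UMIs per 1000000 UMIs of a section (CPM), so the labelled tissue was present. The libraries kept 5399 to 7965 cells with median depths of 4449 to 10717 UMIs, and any 2 of them shared 9 to 30 barcodes. Cells were clustered without any Mmp, Timp, Adam or Adamts gene, and clusters were named from markers (X-like). The libraries did not hold heart cells in their tissue proportions: cardiomyocyte-like barcodes numbered 215 in all, with a median depth of 2184 UMIs, while fibroblast-like cells numbered 4485, 3226, 431 and 2877, macrophage-like cells 1616, 1588, 188 and 911, and neutrophil-like cells 146, 72, 1262 and 193. A level is the summed UMIs of a gene in a group of cells or spots per 1000000 UMIs, and every interval is an exact 95% interval that covers counting error only.

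Mmp12, Mmp3 and Mmp8 are neighbours in the metalloproteinase cluster of mouse chromosome 9, within 224 kb from the start of Mmp12 (chr9:7344397-7360461) over Mmp3 (chr9:7445822-7455975) to the end of Mmp8 (chr9:7558429-7568486), all in GRCm38.p6. Their promoters are shown because these neighbours were each highest in a different kind of cell. The sequences are those of RefSeq, from 250 bases before to 50 bases after each start, on the plus strand, and RefSeq gives 2 starts for Mmp12. Capitals mark 3 short motifs that were searched on both strands and share no letters with each other: TGANTCA, the motif of AP-1, TATAAA, the TATA box, and GAGGAA, the core bound by PU.1 and related ETS factors. Among 32851 promoters of the same length, 7.81% held the first, 13.6% the second and 28.3% the third. The windows lie, as listed, at chr9:7445572-7445871, chr9:7558179-7558478, chr9:7344147-7344446 and chr9:7347124-7347423.
Mmp3: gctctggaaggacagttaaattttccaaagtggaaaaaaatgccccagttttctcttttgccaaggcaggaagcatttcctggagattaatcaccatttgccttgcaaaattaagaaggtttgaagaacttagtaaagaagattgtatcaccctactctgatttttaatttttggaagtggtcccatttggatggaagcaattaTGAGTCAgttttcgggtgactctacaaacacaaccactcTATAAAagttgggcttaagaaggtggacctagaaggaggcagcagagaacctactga
Mmp8: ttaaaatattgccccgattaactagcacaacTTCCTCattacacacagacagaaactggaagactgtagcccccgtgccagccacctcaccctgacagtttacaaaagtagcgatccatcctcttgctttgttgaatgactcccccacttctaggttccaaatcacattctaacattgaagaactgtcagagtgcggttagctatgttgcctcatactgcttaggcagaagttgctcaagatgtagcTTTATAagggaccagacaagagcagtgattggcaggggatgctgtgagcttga
Mmp12, first start: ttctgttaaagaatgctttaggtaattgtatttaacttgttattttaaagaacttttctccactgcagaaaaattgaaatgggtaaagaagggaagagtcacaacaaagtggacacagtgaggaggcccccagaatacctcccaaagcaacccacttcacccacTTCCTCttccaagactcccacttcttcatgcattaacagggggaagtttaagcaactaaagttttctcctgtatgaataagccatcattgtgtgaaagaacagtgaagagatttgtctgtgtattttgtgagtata
Mmp12, second start: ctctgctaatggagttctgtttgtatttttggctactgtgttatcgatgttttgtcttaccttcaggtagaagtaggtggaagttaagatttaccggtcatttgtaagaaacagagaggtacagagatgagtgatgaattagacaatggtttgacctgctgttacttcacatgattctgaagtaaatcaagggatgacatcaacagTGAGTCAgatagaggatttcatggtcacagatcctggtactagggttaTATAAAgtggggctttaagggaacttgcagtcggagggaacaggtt
The Mmp3 promoter held an AP-1 motif 46 bases and a TATA box 7 bases before the annotated start. Mmp8 held the letters TATAAA only on the strand opposite to the gene, beginning 3 bases before the annotated start and running across it. The PU.1 core of Mmp8 began 219 bases before the start. At Mmp12, the first start had the PU.1 core 86 bases before it. The second start had an AP-1 motif 44 bases before it and a TATA box just inside the transcript. The PU.1 cores of Mmp8 and Mmp12 were also read on the opposite strand. The windows of Mmp14, Timp1, Timp2, Timp3 and Timp4 held no match to the 3 motifs, and 8 of the 10 genes matched the promoter table, all but Mmp2 and Mmp9. These matches describe letters in the windows only.

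**Figure D1:**
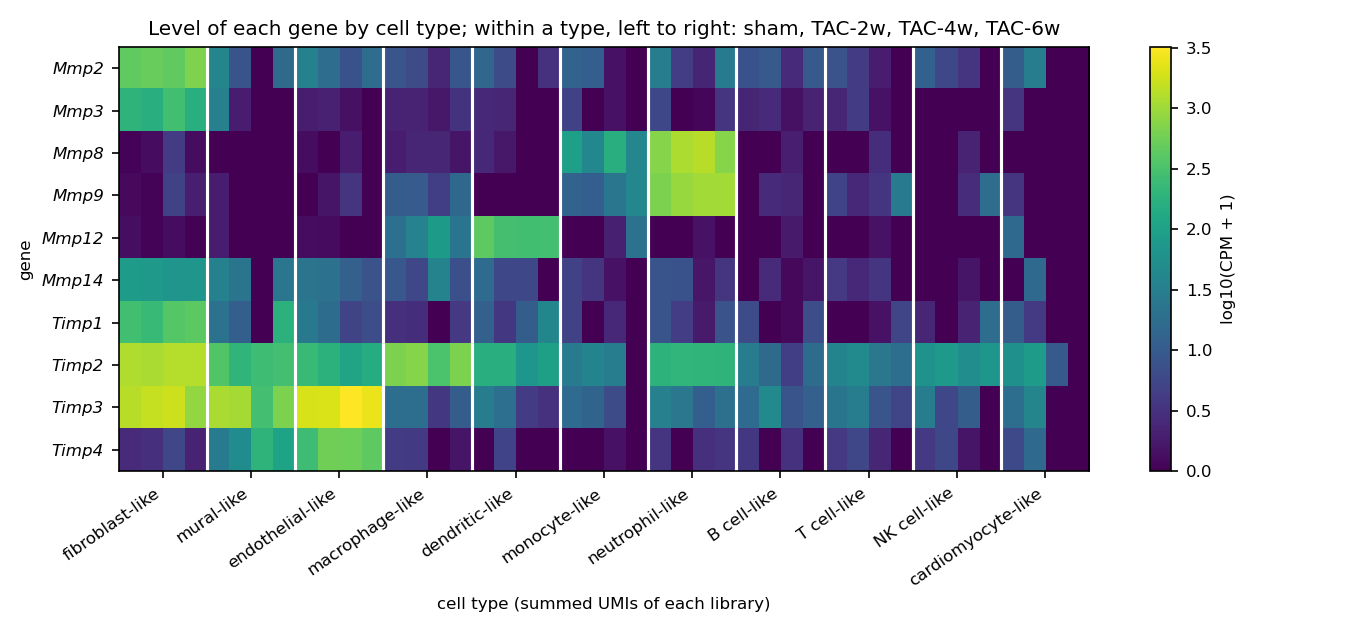
Level of each of the 10 genes (rows) in 11 cell types (blocks of columns), as log10(CPM + 1) of the summed UMIs in colour, with the libraries in order of time from left to right in each block. Among types with at least 50 cells in a library, each row is brightest in fibroblast-like cells for Mmp2, Mmp3, Mmp14, Timp1 and Timp2, in neutrophil-like cells for Mmp8 and Mmp9, in dendritic-like cells for Mmp12 (macrophage-like in TAC-4w) and in endothelial-like cells for Timp3 and Timp4, and mural-like cells of TAC-4w and cardiomyocyte-like cells of TAC-6w numbered only 7 and 10.

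Which cells carry each gene was asked first, in each library on its own. Among the cell types with at least 50 cells in a library, 9 of the 10 genes had the same type at the top in all 4 libraries, and Mmp12 was the exception. With each cell named by its own marker score in place of its cluster, the count was 5. Mmp3, Mmp14, Timp1 and Timp2 then no longer had fibroblast cells at the top in every library. Timp1 in TAC-4w, for example, stood at 897 CPM in cells scored as mural and 278 CPM in cells scored as fibroblast. Those scored as mural also had 343 CPM of Mmp2 and 225 CPM of Mmp3 there. Whether the names by score hold for such cells was not tested. The same count over all genes was not taken. B cell-like cells, which should lack these genes, served as a background for free RNA in the droplets, with 1.62 to 8.65 CPM for Mmp2, 0.451 to 1.73 for Mmp3, 0 to 5.76 for Timp1, 3.52 to 29.5 for Timp2 and 7.03 to 46.7 for Timp3.

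Mmp2 (gelatinase A, chr8:92827290-92853421), which degrades denatured collagen and basement membrane collagen, was read almost entirely in fibroblast-like cells. These cells held 98.2%, 98.9%, 97.7% and 99.1% of its UMIs, at levels of 449 (443 to 455), 489.8 (483 to 497), 444 (428 to 461) and 681 (669 to 693) CPM. The TAC-6w level stood above the other 3. With every cell thinned to 1000 UMIs, 33.2%, 36.6%, 33.3% and 45.6% of fibroblast-like cells had a Mmp2 UMI, against 0.870%, 1.31%, 0.207% and 0.603% of B cell-like cells, and without thinning 92.2%, 93.7%, 91.9% and 89.2% of fibroblast-like cells. The median depths were 10566, 12593.5, 13948 and 6208 UMIs in fibroblast-like and 3057.5, 3632.5, 4349.5 and 1902 in B cell-like cells.

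Mmp14 (membrane-type 1 metalloproteinase, chr14:54431598-54442456), which sits in the cell membrane and opens the Mmp2 proenzyme, was also highest in fibroblast-like cells, at 84.9, 78.9, 66.6 and 65.8 CPM. The 2 TAC libraries after week 2 stood below sham. Mural-like cells (pericytes and smooth muscle) had 34.1 and 21.1 CPM in sham and TAC-2w, the 2 libraries with over 50 of them, and endothelial-like cells 21.1, 19.8, 11.0 and 6.89 CPM. In macrophage-like cells Mmp14 stood at 8.01, 4.54 and 6.22 CPM in sham, TAC-2w and TAC-6w and at 36.3 (27.2 to 47.4) CPM in TAC-4w, from 53 UMIs in 188 cells.

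Mmp3 (stromelysin 1), which cleaves proteoglycans, fibronectin and basement membrane proteins and opens other proenzymes, stood at 188, 158, 279 and 158 CPM in fibroblast-like cells. It differed from the other fibroblast genes in how few cells carried it. Only 16.1%, 15.5%, 15.5% and 12.2% of fibroblast-like cells had a Mmp3 UMI, and the 5% of cells with the most of it held 82.4%, 84.1%, 81.7% and 85.3% of its UMIs. For Mmp2 that share was 17.7% to 19.4%, for Mmp14 22.8% to 31.4%, for Timp2 14.1% to 17.2%, for Timp3 23.1% to 32.4% and for Timp1 36.9% to 52.7%. A single sham cell held 154 Mmp3 UMIs and a single TAC-2w cell 263. Outside fibroblast-like cells, Mmp3 reached 32.3 CPM in the mural-like cells of sham, from 37 UMIs, and at most 4.73 CPM in the other named cell types with at least 50 cells.

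Mmp8 (neutrophil collagenase), which cuts intact fibrillar collagen and is stored in granules, was read in neutrophil-like cells, which held 87.9%, 87.4%, 95.4% and 96.1% of its UMIs. Its levels there were 739, 1176, 1352 and 749.6 CPM. Monocyte-like cells came next, with 42.8 CPM in TAC-2w and 163 (146 to 182) in TAC-4w, the 2 libraries with over 50 of them. Mmp9 (gelatinase B, chr2:164940326-164955850), the other gelatinase, also had its highest level in neutrophil-like cells, at 651, 914, 1043 and 1066 CPM, and they held 64.3%, 64.7%, 98.2% and 84.9% of its UMIs. Macrophage-like cells held 27.8%, 32.2%, 0.0761% and 9.14%, at a level of only 9.72, 9.29, 3.42 and 13.9 CPM, and they outnumbered the neutrophil-like cells in every library but TAC-4w. After thinning, 37.0%, 48.6%, 53.7% and 56.2% of neutrophil-like cells had a Mmp9 UMI and 35.6%, 37.5%, 40.1% and 23.7% a Mmp8 UMI, against at most 0.654% and 0.207% of B cell-like cells, at median depths of 2461, 3045, 3431 and 1444 UMIs in neutrophil-like cells.

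Mmp12 (macrophage elastase), which degrades elastin, was highest in the dendritic-like cluster, a group of 319 cells led by Retnla, Cd209a, Tnip3 and Ccl17 whose 10 leading genes included 1 dendritic marker, Cd209a, and also 1 monocyte marker, Ccr2. Its level there was 436, 301, 280.3 and 291 CPM, from 105, 101, 45 and 68 cells. Few cells decided these values: 33, 30, 4 and 13 cells had a UMI, and in TAC-4w 147 of the 174 UMIs came from 1 cell. Without the top cell of each library the levels were 323, 243, 44.5 and 189 CPM. Macrophage-like cells had 18.3, 35.2, 80.0 and 22.3 CPM and held 25.7%, 48.2%, 37.4% and 36.7% of the Mmp12 UMIs, beside 63.5%, 40.9%, 55.6% and 61.9% in dendritic-like cells. Few macrophage-like cells carried it as well: 43, 53, 18 and 21 cells had a Mmp12 UMI. The top cell of each library held 28 of 224, 118 of 520, 21 of 117 and 41 of 79 of these UMIs. Against sham, the dendritic-like level was at 0.690 (0.607 to 0.783) times in TAC-2w and 0.667 (0.548 to 0.807) times in TAC-6w, but at 0.387 in TAC-2w with cells under 5% mitochondrial share and at 0.349 in TAC-6w with cells named by their own marker score. In TAC-4w the dendritic-like cells numbered under 50, so macrophage-like cells were counted as the top type there. The dendritic level also hung on the naming. With cells named by their own marker score, those scored as dendritic had 74.7 CPM in sham, beside 66.9 in cells scored as monocyte. In TAC-2w they had 70.3 CPM, beside 56.3 in cells scored as macrophage. In TAC-6w cells scored as macrophage were the top type, at 50.9 CPM against 26.1 in cells scored as dendritic.

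Timp1 (chrX:20870166-20874737), an inhibitor of most secreted metalloproteinases, had 98.6%, 98.8%, 98.4% and 98.1% of its UMIs in fibroblast-like cells, at 279, 233, 381 and 417 CPM. TAC-4w and TAC-6w stood above both other libraries. A few cells carried much of it, since a single sham cell held 462 UMIs and a single TAC-4w cell 432 of 2392. With naming by score, cells scored as fibroblast had 259 CPM in sham and 278 CPM in TAC-4w. The TAC-4w level also differed between clusters, as given below. Timp2 (chr11:118301061-118355411), which both inhibits Mmp2 and takes part in opening its proenzyme with Mmp14, stood at 1249.5, 1147, 1325 and 1311 CPM in fibroblast-like cells. Macrophage-like cells had 664, 739, 324 and 654 CPM of it, the TAC-4w value being the lowest, neutrophil-like cells 185, 206, 194 and 189.7 CPM, and mural-like cells 358 and 196 CPM in sham and TAC-2w. Of thinned macrophage-like cells, 41.8%, 45.8%, 21.6% and 41.5% had a Timp2 UMI, against 2.61%, 1.96%, 0.290% and 1.69% of B cell-like cells.

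Timp3 (chr10:86300412-86349505), the inhibitor that stays bound to the matrix, had its highest level in endothelial-like cells, at 1954, 2026, 3226 and 2574 CPM. Fibroblast-like cells followed with 1361, 1585, 1719 and 869.6 CPM and held 88.7%, 88.0%, 42.6% and 87.3% of its UMIs. Macrophage-like cells had 17.4, 17.4, 2.74 and 9.89 CPM, no more than the 16.1, 46.7, 7.03 and 11.0 CPM of B cell-like cells in 3 of the 4 libraries. Their median depths were 7300, 8848.5, 6965.5 and 3656 UMIs, against 3057.5, 3632.5, 4349.5 and 1902 in B cell-like cells. At such unlike depths, the levels do not show how much of this Timp3 was free RNA. Timp4 (chr6:115244444-115252205), the inhibitor known for its expression in heart, was read in endothelial-like cells in these libraries, with 264, 554, 542 and 441 CPM and 83.0%, 89.8%, 96.4% and 88.9% of its UMIs there. Fibroblast-like cells had 1.58, 2.0, 4.62 and 1.16 CPM, beside 2.69, 0, 2.16 and 0 CPM in B cell-like cells.

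Cardiomyocyte-like barcodes gave few UMIs of any of the 10 genes. The 107 of sham and 75 of TAC-2w held between 0 and 29 UMIs of each gene, the most for Timp2, at 57.0 (36.1 to 85.6) and 85.4 (57.2 to 123) CPM. The 23 of TAC-4w held 1 UMI of the 10 genes together and the 10 of TAC-6w none, where a count of 0 allows a level of up to 26.2 and 164 CPM at a floor of 3 counts.

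**Figure D2:**
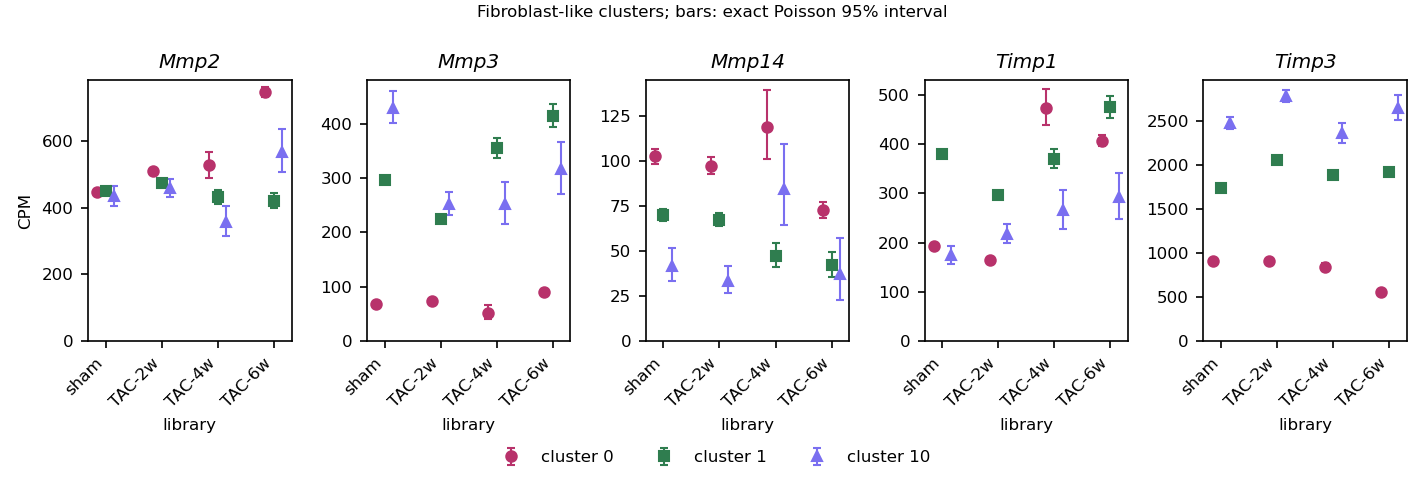
Level (CPM, linear axis from 0) of Mmp2, Mmp3, Mmp14, Timp1 and Timp3 in the 3 fibroblast-like clusters of each library, with exact Poisson 95% intervals as bars. Cluster 0 has the lowest Mmp3 and Timp3 in all 4 libraries, and its Mmp2 level of 747 CPM in TAC-6w is the highest of that gene's values.

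Fibroblast-like cells consisted of 3 clusters, among which the genes were unevenly spread. Cluster 0 was led by Pla1a, Pcsk6 and Cxcl14, cluster 1 by Igfbp3, Sfrp2, Rbp4 and Gdf10, and cluster 10 by Wif1 and Chad. A cluster against another is no test, because the same cells were used to form them, so these levels are a description. Mmp3 stood at 67.1, 73.3, 51.7 and 90.8 CPM in cluster 0, at 296, 224, 355 and 415 CPM in cluster 1 and at 430.0, 253, 253 and 316 CPM in cluster 10. Mmp3 was thus lowest in cluster 0 in every library, and how many of all genes differ in such a way between these clusters was not counted. Timp3 was also lowest in cluster 0, with 552 to 915 CPM in cluster 0, 1736 to 2055 in cluster 1 and 2368 to 2785 in cluster 10. Mmp14 ran the other way between the 2 large clusters, with 102, 97.4, 119 and 72.5 CPM in cluster 0 against 70.0, 67.2, 47.2 and 42.2 CPM in cluster 1. Mmp2 was close in the 2 large clusters of sham, at 447 and 452 CPM, and apart in TAC-6w, at 747 and 422 CPM.

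The mix of these clusters differed between libraries: cluster 0 made up 46.2%, 42.7%, 20.9% and 74.9% of the fibroblast-like cells and cluster 1 50.2%, 52.6%, 69.8% and 22.7%. A level over all fibroblast-like cells mixes the levels within clusters with their shares, so ratios to sham were taken both ways. Within cluster 0 at TAC-6w the ratio was 1.67 (1.63 to 1.72) for Mmp2, 2.11 (2.03 to 2.19) for Timp1, 1.35 for Mmp3, 0.708 for Mmp14 and 0.604 for Timp3. Within cluster 1 it was 0.934 (0.884 to 0.986) for Mmp2, 1.25 (1.19 to 1.32) for Timp1, 1.40 for Mmp3, 0.603 for Mmp14 and 1.11 for Timp3. Timp1 and Mmp3 were above and Mmp14 below sham in both, while Mmp2 and Timp3 lay on different sides of it. Over all fibroblast-like cells Mmp3 was at 0.841 times sham at TAC-6w, below it, although it was above sham within both large clusters.

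To show how often such differences occur among all genes, a gene with at least 50 UMIs in either sum was counted as past the fold where its ratio to sham was at least 1.5 or at most 1 divided by 1.5. A gene that reaches this minimum only in the sum where it is high was in part picked for that level or for depth. The counts therefore cover the genes above the minimum and not all 10. In cluster 0 at TAC-6w, 2 of 7 members (Mmp2 and Timp1) were past it upwards and 2 (Timp3 and Timp4, the latter from 19 against 53 UMIs) downwards, where 8.38% and 13.1% of all genes were. In cluster 1, 0 of 6 were past it upwards and 1 (Mmp14) downwards, where 6.70% and 17.7% of all genes were.

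Over all fibroblast-like cells, none of 7 members was past the fold at TAC-2w in either direction, beside 2.22% and 1.52% of all genes upwards and downwards. At TAC-4w 1 was past it upwards (Timp4, from 29 UMIs against 77 in sham) and 0 downwards, beside 13.0% and 8.30%. At TAC-6w, in the comparison within a batch, Mmp2 was past it upwards at 1.52 (1.48 to 1.55) and Timp3 downwards at 0.639 (0.628 to 0.650), beside 7.39% and 13.9%. With mitochondrial genes and features like ribosomal RNA left out of the total these were 1.48 and 0.622. With 1 of 7 members in each direction, the members' share was near these backgrounds. Timp1 stood just inside the fold at TAC-6w, at 1.49 (1.45 to 1.54), as did Mmp3 at TAC-4w, at 1.48 (1.41 to 1.56). Within the clusters, however, Mmp3 at TAC-4w stood at 0.770 (0.596 to 0.980) times sham in cluster 0 and at 1.2 (1.13 to 1.27) times in cluster 1. Timp1 at TAC-4w stood at 2.46 (2.26 to 2.67) times sham in cluster 0, from 633 UMIs in 90 cells. In cluster 1, with 1577 UMIs in 301 cells, it stood at 0.976 (0.925 to 1.03) times. A single fibroblast-like cell of TAC-4w held 432 Timp1 UMIs, and its cluster was not looked up. The Timp1 ratio of the cluster that held it may rest largely on that cell, which the intervals do not cover. The median log2 ratio of the members was -0.11, 0.34 and -0.25 at the 3 times, beside 0.03, 0.12 and -0.08 over all genes tested.

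In macrophage-like cells, TAC-2w had 1 of 6 members past the fold upwards (Mmp12, 1.93) and 1 downwards (Mmp14, 0.567), beside 1.43% and 1.12% of all genes. TAC-4w, with 188 cells, had 2 upwards, Mmp12 at 4.37 (3.47 to 5.49) and Mmp14 at 4.53 (3.18 to 6.39), beside 12.5%. The other 4 were past it downwards there (Mmp2, 0.184, Mmp9, 0.352, Timp2, 0.488, and Timp3, 0.157), beside 12.5%. TAC-6w, in the same batch as sham, had none upwards and 1 downwards (Timp3, 0.569), beside 4.71% and 17.0%. Without removal of doublets 6 members were past it there, but these were not the same 6 as above. Timp2 was then at 704 CPM in sham and 694 in TAC-6w and Mmp12 at 15.6 and 21.0 CPM, both inside the fold. The directions and the share of all genes were not taken for that setting. The levels of Mmp2 and Timp3 in macrophage-like cells were near those of B cell-like cells, which had lower median depths. The member medians were -0.03, -1.27 and 0.01 on the log2 scale, beside 0.04, 0.05 and -0.16 over all genes tested. The Mmp12 UMIs lay in 43, 53 and 18 macrophage-like cells of sham, TAC-2w and TAC-4w, and 118 of the 520 of TAC-2w in 1 cell. The counting intervals do not cover this, and ratios without the top cells were not taken. When each cell was named by its own marker score, the Mmp12 ratios were 1.02 at TAC-2w and 1.79 at TAC-4w. Without removal of doublets the Mmp14 ratio at TAC-4w was 2.76, and with thinned cells it was 2.59, beside 0.911 at TAC-2w.

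**Figure D3:**
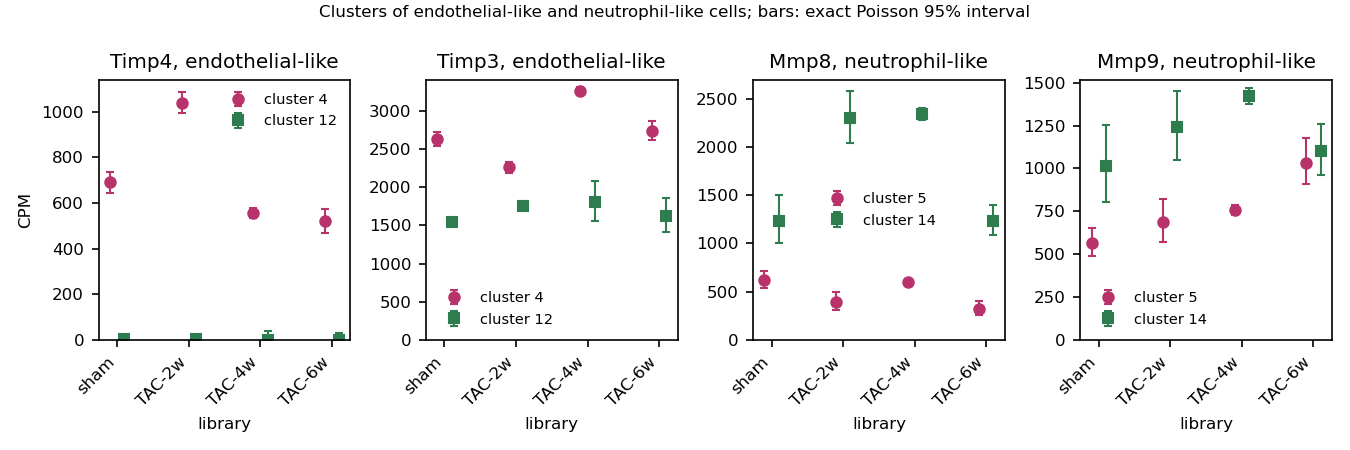
Level (CPM, linear axis from 0) of Timp4 and Timp3 in the 2 endothelial-like clusters and of Mmp8 and Mmp9 in the 2 neutrophil-like clusters of each library, with exact Poisson 95% intervals as bars. Timp4 lies between 520.1 and 1038 CPM in cluster 4 and at or below 5.26 CPM in cluster 12, and Mmp8 is higher in cluster 14 than in cluster 5 in all 4 libraries.

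Endothelial-like cells had 2 clusters, and nearly all Timp4 was read in one of them. Cluster 4, led by the capillary genes Fabp4, Gpihbp1 and Aqp1, had 691, 1038, 554 and 520.1 CPM of Timp4. Cluster 12, led by Npr3, Plvap and H19, had 5.26 and 4.82 CPM in sham and TAC-2w and no UMI in its 10 and 24 cells of TAC-4w and TAC-6w. Timp3 was present in both, at 2262 to 3259 CPM in cluster 4 and 1544 to 1805 CPM in cluster 12. Cluster 4 made up 61.5%, 77.6%, 97.9% and 88.0% of the endothelial-like cells.

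Over both clusters, Timp4 stood at 2.10 (1.94 to 2.28), 2.05 (1.90 to 2.22) and 1.67 (1.48 to 1.89) times sham at the 3 times after TAC. Within cluster 4 the ratios were 1.5, 0.803 and 0.753, so the direction at TAC-4w and TAC-6w depended on which cells were compared. With cells under 5% mitochondrial share the ratios over both clusters were 3.38, 6.09 and 3.71. The levels behind them were 57.7, 195, 352 and 214 CPM, below the 264, 554, 542 and 441 CPM of all kept endothelial-like cells and lowest in sham. With cells thinned to 1000 UMIs the ratios at TAC-4w and TAC-6w came to 1.33 and 1.04. TAC-2w had 1 of 6 members past the fold upwards (Timp4) and 2 downwards (Mmp2 and Timp1), beside 4.05% and 3.40% of all genes. TAC-4w had 2 upwards (Timp3, 1.65, and Timp4) and 4 downwards (Mmp2, Mmp14, Timp1 and Timp2, 0.169 to 0.523), beside 19.1% and 12.7%. TAC-6w had 1 upwards (Timp4) and 4 downwards (Mmp2, Mmp14, Timp1 and Timp2, 0.227 to 0.650), beside 11.6% and 22.8%. Of the genes below sham, Timp2 stood at 229, 177, 109.6 and 149 CPM, and Mmp2, Mmp14 and Timp1 at no more than 33.9 CPM, where B cell-like cells had up to 8.65, 1.73 and 5.76 CPM of them. Within cluster 4, Timp3 at TAC-4w was at 1.24 (1.19 to 1.29) times sham, inside the fold. Timp1 there stood at 0.731 (0.268 to 2.30) times sham at TAC-4w and 0.858 (0.139 to 4.02) at TAC-6w, from 15, 3 and, in sham, 6 UMIs, and Timp2 at TAC-6w at 0.862 (0.678 to 1.09). Timp2 was past the fold in cluster 4 at TAC-2w, at 0.591 (0.484 to 0.722), and at TAC-4w, at 0.602 (0.511 to 0.712). At TAC-4w, Mmp2 stood there at 0.210 (0.124 to 0.350) and Mmp14 at 0.480 (0.294 to 0.798), both from counts below the minimum.

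Neutrophil-like cells had 2 clusters as well. Cluster 14, led by Ngp, Camp and Ltf, which encode proteins of secondary granules, had 1233, 2299, 2346 and 1239 CPM of Mmp8 and 1011, 1238, 1421 and 1103 CPM of Mmp9, from 11, 13, 236 and 31 cells. Cluster 5, led by Acod1 and Il1r2, had 621, 395, 601 and 324 CPM of Mmp8 and 565, 688, 757 and 1034 CPM of Mmp9. Mmp8 was higher in cluster 14 in every library, and the 2 clusters were closest for Mmp9 in TAC-6w. Cluster 14 made up 7.53%, 18.1%, 18.7% and 16.1% of the neutrophil-like cells.

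Over both clusters, Mmp8 stood at 1.59, 1.83 and 1.01 times sham and Mmp9 at 1.40, 1.60 and 1.64 times sham at the 3 times. Within cluster 5, the larger one, Mmp8 stood at 0.635 (0.478 to 0.836), 0.967 (0.839 to 1.12) and 0.522 (0.395 to 0.683) times sham, and Mmp9 at 1.22 (0.961 to 1.53), 1.34 (1.16 to 1.56) and 1.83 (1.5 to 2.22) times. Mmp9 was above sham both ways, though its interval within cluster 5 at TAC-2w held 1, while the direction of Mmp8 at TAC-2w and TAC-4w turned. TAC-2w had 1 of 3 members past the fold upwards (Mmp8) and none downwards, beside 5.42% and 11.1% of all genes. TAC-4w had 2 of 4 upwards (Mmp8 and Mmp9) and 1 downwards (Timp3, from 64 UMIs against 14 in sham), beside 16.5% and 15.3%. That Timp3 ratio of 0.312 was 0.736 with cells named by their own marker score, and its levels of 33.1 and 10.3 CPM in sham and TAC-4w stood beside 16.1 and 7.03 CPM in B cell-like cells. TAC-6w had 1 of 3 upwards (Mmp9) and none downwards, beside 16.9% and 25.8%.

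**Figure D4:**
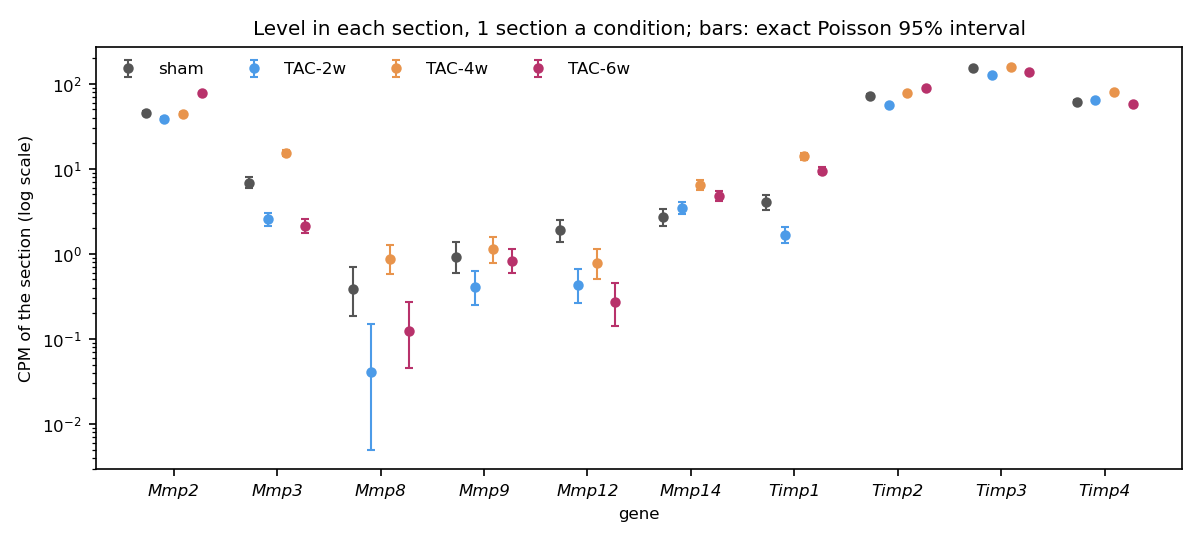
Level of each of the 10 genes in the 4 heart sections (CPM, log axis), 1 point for a section, with exact Poisson 95% intervals as bars. Timp1, Mmp3 and Mmp14 are highest in TAC-4w (14.1, 15.4 and 6.42 CPM) and Mmp2 in TAC-6w (78.2 CPM), while Timp3 lies between 128 and 156 CPM.

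In the sections, RNA of all cells is counted in place, and fewer cells of a type and less RNA per cell cannot be told apart. Mmp2 stood at 45.2 (42.7 to 47.9), 38.8 (37.1 to 40.6), 43.7 (41.5 to 46.1) and 78.2 (75.8 to 80.8) CPM. The TAC-6w section was farthest from sham, at 1.73 (1.62 to 1.85) times its level, and TAC-2w lay below sham, at 0.859 (0.798 to 0.924). Mmp14 stood at 2.69, 3.47, 6.42 and 4.83 CPM, all 3 TAC sections being above sham, with ratios of 1.29 (0.969 to 1.73), 2.38 (1.81 to 3.17) and 1.79 (1.37 to 2.38). As a mean over spots, in which each spot counts equally whatever its depth, the first of these was 1.60, past the fold. With mitochondrial genes and features like ribosomal RNA left out of the total, that TAC-2w ratio was 1.10 (0.829 to 1.48). Its interval thus held 1 with either total.

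Mmp3 stood at 6.85, 2.56, 15.4 and 2.13 CPM. It lay on both sides of sham, with ratios of 0.374 (0.295 to 0.473), 2.25 (1.90 to 2.69) and 0.312 (0.242 to 0.399). Timp1 stood at 4.04 (3.30 to 4.89), 1.68 (1.34 to 2.09), 14.1 (12.8 to 15.5) and 9.48 (8.64 to 10.4) CPM, with ratios of 0.416 (0.308 to 0.561), 3.50 (2.82 to 4.37) and 2.35 (1.90 to 2.93). It was below sham at TAC-2w, in the comparison within a batch, and above it at TAC-4w and TAC-6w. 4.71%, 3.2%, 20.0% and 15.6% of the spots had a Timp1 UMI. As a mean over spots, the Timp1 ratio at TAC-6w was 3.68.

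The other inhibitors differed less. Timp2 stood at 72.7, 56.0, 77.1 and 88.1 CPM, Timp3 at 154, 128, 156 and 139 CPM and Timp4 at 60.9, 64.5, 79.3 and 57.4 CPM. Their ratios to sham lay between 0.770 and 1.3, none past the fold, but with mitochondrial genes and features like ribosomal RNA left out of the total Timp2 at TAC-2w was at 0.659, past it. Timp4 was seen in 51.6%, 73.4%, 77.1% and 56.7% of the spots.

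Mmp8, Mmp9 and Mmp12, the genes of neutrophil-like and dendritic-like cells, were sparse in the sections. Mmp8 gave 10, 2, 28 and 6 UMIs, Mmp9 24, 20, 36 and 40, and Mmp12 49, 21, 25 and 13, all below the minimum of 50. Mmp8 and Mmp9 had their highest levels in TAC-4w, at 0.877 (0.582 to 1.27) and 1.13 (0.789 to 1.56) CPM, and the Mmp9 intervals of sham, TAC-4w and TAC-6w overlapped. For Mmp12, 20 of the 49 UMIs of sham lay in 1 spot, and without it the level was 1.12 (0.748 to 1.60) CPM in place of 1.88.

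Of the 7 members above the minimum, TAC-2w had 0 past the fold upwards and 2 downwards (Mmp3 and Timp1), where 4.95% and 3.27% of all genes were. TAC-4w had 3 upwards (Mmp3, Mmp14 and Timp1) and 0 downwards, beside 15.2% and 2.50%. TAC-6w had 3 upwards (Mmp2, Mmp14 and Timp1) and 1 downwards (Mmp3), beside 17.6% and 0.962%. The median log2 ratio of the 7 was -0.26, 0.38 and 0.28, beside 0.05, 0.22 and 0.30 over all genes tested. With mitochondrial genes and features like ribosomal RNA left out of the total, the median of all genes was -0.18, -0.04 and 0.10. The Timp1 ratios were then 0.356, 2.93 and 2.04, the Mmp3 ratios 0.320, 1.89 and 0.270, and the Mmp2 ratio at TAC-6w 1.5, while Timp2 and Timp3 at TAC-4w and Timp4 at TAC-2w were at 0.888, 0.852 and 0.906, now below sham.

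Markers of the source cells differed between the sections too. The 6 fibroblast markers summed to 709.8, 712, 898 and 1189 CPM, the 6 macrophage markers to 243, 219.7, 476 and 352 CPM, and the 6 endothelial markers to 1222, 1168, 1608 and 2126 CPM. The 6 neutrophil markers summed to 29.8, 6.09, 88.3 and 15.9 CPM, with Ly6g at 0 in sham, the 6 dendritic markers to 7.39, 5.66, 8.42 and 10.4 CPM, the 6 mural markers to 584, 503, 509 and 606 CPM, and the 6 cardiomyocyte markers to 32814, 35607, 26362 and 32278 CPM. Every other marker of these lists had a UMI in every section. The summed fibroblast markers and Mmp2 were highest in TAC-6w, whereas Mmp3, Mmp14 and Timp1, also genes of fibroblast-like cells in the libraries, were highest in TAC-4w. The fibroblast markers differed among themselves. Dcn was highest in TAC-4w, at 734 CPM, beside 528 in TAC-6w and 453 in sham. Col1a1, Col1a2 and Col3a1 stood at 0.623, 0.769 and 0.358 times sham in TAC-4w. In TAC-6w these collagen genes stood at 2.72, 2.48 and 3.05 times sham. Neutrophil markers and Mmp8 were highest in TAC-4w. The part of cell numbers in the levels of the 10 genes was not tested.

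**Figure D5:**
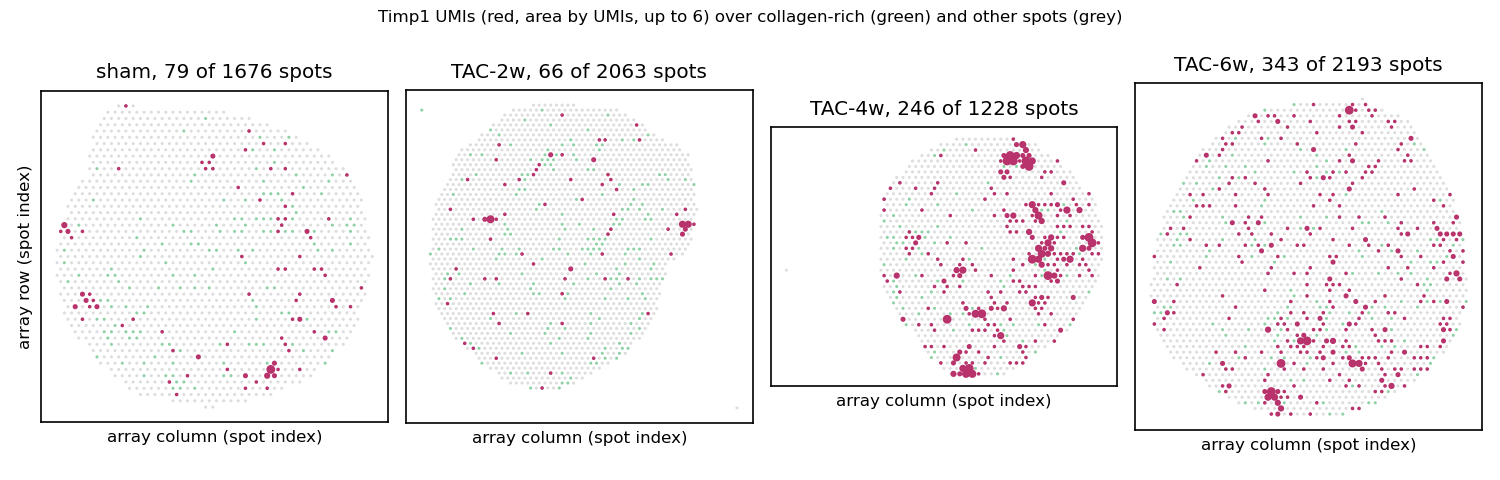
Position of the spots with a Timp1 UMI (red, area by UMIs up to 6) in the 4 sections, by array column and row. Collagen-rich spots (the top 10% by the summed share of Col1a1, Col1a2, Col3a1, Dcn and Lum) are green and the other spots grey. 79 of 1676, 66 of 2063, 246 of 1228 and 343 of 2193 spots have a Timp1 UMI.

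Within each section, the spots in the top 10% by the summed share of a marker list were set against the other spots, so that each section gave its own comparison. The share of all genes that were higher in such spots was not taken. Whether the counts of members below are unusual can therefore not be told. The list for collagen-rich spots held Col1a1, Col1a2, Col3a1, Dcn and Lum, and Dcn and Lum are not collagens. Dcn stood at 453, 463, 734 and 528 CPM in the sections, above each of the listed collagen genes, so it weighed most in the ranking. In these spots, 4 of the 7 genes (Mmp2, Mmp3, Timp2 and Timp3) were higher in all 4 sections, with an interval above 1 in each. With the top 5% or the top 20% of spots the count was 3, without Mmp3. Mmp2 was at 105, 77.1, 92.2 and 143 CPM inside and 37.5, 34.5, 38.2 and 69.9 CPM outside, and its ratios were 2.81 (2.46 to 3.2), 2.23, 2.42 and 2.05. Mmp3 had ratios of 3.68, 2.82, 2.74 and 2.25, Timp2 of 2.2, 2.01, 2.10 and 1.80, and Timp3 of 1.40, 1.45, 1.48 and 1.39. Timp1 was 5.85, 1.53 (0.756 to 2.85), 2.44 and 2.78 times as high inside, and Mmp14 1.46 (0.689 to 2.80), 2.34, 2.59 and 2.25 times, so the interval of each held 1 in 1 section. Timp4 had ratios of 1.13, 0.864, 0.881 and 1.07.

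Spots rich in Nppa, Nppb, Ankrd1 and Acta1, here called ventricular stress genes, were ranked without regard to chamber. The name therefore does not place them in the ventricle or in stressed tissue, in sham least of all. In these spots, Mmp2, Timp1, Timp2 and Timp3 were higher in all 4 sections. Timp1 had ratios of 5.83 (3.85 to 8.76), 2.23 (1.21 to 3.90), 3.40 (2.76 to 4.17) and 2.26 (1.77 to 2.85) there, from levels of 15.8, 3.35, 37.8 and 19.1 CPM inside and 2.70, 1.5, 11.1 and 8.46 CPM outside. Timp4 was at ratios of 0.724 (0.597 to 0.872), 0.957 (0.846 to 1.08), 0.791 (0.688 to 0.906) and 0.949 (0.831 to 1.08). Macrophage-rich spots had the same count of 4 (Mmp2, Timp1, Timp2 and Timp3, 1.13 to 2.79), and smooth-muscle-rich spots 3 (Mmp2, Timp2 and Timp3, 1.32 to 2.21). Spots rich in endocardial and large-vessel genes had 1 (Timp3, 1.12 to 1.34) and atrial-rich spots 0. Timp1 was lost from the ventricular stress count with the top 5% of spots and from the macrophage-rich count with the top 20%, leaving 3 genes in each. The depth of the spots differed with the class: smooth-muscle-rich spots of TAC-6w had a median of 6570 UMIs against 21770.5 outside. The overlap of the classes was not tested.

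As a single figure for enzyme and inhibitor RNA, the 6 Mmp genes gave 16.6% (15.8% to 17.4%), 15.5% (14.9% to 16.1%), 17.3% (16.6% to 18%) and 22.7% (22.1% to 23.4%) of the UMIs of all 10 genes in the sections. In fibroblast-like cells the share was 20.0%, 19.7%, 18.9% and 25.9%. TAC-6w was highest in both. The fibroblast-like value mixes clusters, however, and cluster 0 made up 46.2% of these cells in sham and 74.9% in TAC-6w. Mmp2, at TAC-6w, stood at 1.67 times sham in cluster 0 and at 0.934 times in cluster 1. The share within each cluster was not taken. Cell types lay far apart: the share was 86.3% to 92.1% in neutrophil-like cells, 63.1% to 70.1% in dendritic-like cells of the 3 libraries with over 50 of them, 6.21% to 7.34% in macrophage-like cells outside TAC-4w and 27.4% in TAC-4w, and 0.549% to 2.24% in endothelial-like cells. The share sums UMIs of different genes and describes RNA, not protein.

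Other genes of the pathway were counted from 3 lists, with 21 other metalloproteinases of the Mmp, Adam and Adamts families, 15 activators and inhibitors, and 12 matrix substrates. In the TAC-2w section 14, 11 and 12 of them reached the minimum of 50 UMIs, and none was past the fold upwards, beside 4.95% of all genes. Downwards, beside 3.27%, stood Mmp17, a membrane-anchored enzyme, at 0.369 (0.234 to 0.576), Adamts1, which cleaves versican, at 0.612 (0.544 to 0.689) and Postn, a matricellular protein of activated fibroblasts, at 0.635 (0.570 to 0.708). At TAC-4w 1 of 14, 3 of 12 and 1 of 12 were past it upwards and 3, 0 and 2 downwards, beside 15.2% and 2.50%. At TAC-6w 7 of 15, 5 of 12 and 10 of 12 were past it upwards and none downwards, beside the 17.6% and 0.962% of all genes given above. The list medians at TAC-6w were 0.47, 0.52 and 1.18 on the log2 scale, beside 0.30 over all genes. The largest ratios were those of Postn, 4.46 (4.10 to 4.86), Mmp13, an interstitial collagenase, 3.57 (1.68 to 8.69), and Col3a1, a fibrillar collagen, 3.05 (2.92 to 3.19). Mmp13, at 0.308 CPM in sham and 1.10 CPM in TAC-6w, reached the minimum only through the TAC-6w section, which was also deeper than sham. It was thus in part picked for its high level there. The smallest ratios were those of Furin, which opens proenzymes, 0.952 (0.881 to 1.03), Mmp17, 0.952 (0.671 to 1.37), and Adamts15, 0.985 (0.739 to 1.32).

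In fibroblast-like cells the same lists, with 18, 13 and 12 genes above the minimum, gave none upwards and 0, 1 and 0 downwards at TAC-2w, beside 2.22% and 1.52% of all genes. They gave 0, 1 and 3 upwards and 6, 2 and 2 downwards at TAC-4w, beside 13.0% and 8.30%, and 2, 1 and 2 upwards and 3, 1 and 1 downwards at TAC-6w, beside 7.39% and 13.9%. The 10 of 12 substrates past the fold in the TAC-6w section stood beside 2 of 12 in the fibroblast-like cells of the TAC-6w library.

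The genes whose levels ran most like those of each member were sought over 39 profiles (sums of 1 cell type in 1 library with at least 50 cells) among 13743 genes, by Pearson's r of log2(CPM + 1). The profiles of a library share its depth and free RNA, so the values are descriptions only. Mmp2 was closest to Tnxb (r = 0.965), Scara5 (0.942) and Col5a1 (0.932), and Mmp3 to Gm29101 (0.951), Ece2 (0.947) and Gal3st4 (0.944). Mmp14 was closest to Serpinf1 (0.883), Arhgef40 (0.874) and P3h3 (0.872). Mmp8 was closest to Cd177 (0.982), Arg2 (0.978) and Trem3 (0.975), Mmp9 to Gm16556 (0.921), Mirt2 (0.915) and Fpr2 (0.914), and Mmp12 to Lyz1 (0.915), Slc13a3 (0.905) and Retnla (0.890), the first and last being among the 10 leading genes of the dendritic-like cluster. For the inhibitors these were Sfrp1 (0.926), Serpina3n (0.886) and Lsamp (0.885) for Timp1, Ctsl (0.888), Egr1 (0.881) and Cd63 (0.880) for Timp2, Hspg2 (0.961), Tm4sf1 (0.960) and Eln (0.956) for Timp3, and Tmem44 (0.921), Adgrf5 (0.921) and Mmrn2 (0.919) for Timp4.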

How the data were processed

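RNA was measured in 4 Visium sections and 4 droplet libraries of mouse heart. The authors aligned reads to mm10 and deposited UMI counts per gene and barcode, without normalization. The file headers name cellranger 6.0.0 and spaceranger 1.2.0, and the submitters' processing notes Cell Ranger 7.0.0 and Space Ranger 1.3.1. The labels describe nuclei and the methods dissociated cells, and which of them was loaded was not decided here.

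The limits for a kept cell were those of the methods (200 to 6000 genes, 500 to 30000 UMIs, under 15% mitochondrial UMIs), and the 3.2% with the highest Scrublet scores were removed from each library. Libraries were merged without integration and clustered with Seurat 5.3.0 under R 4.3.3 (3000 variable genes, 30 components, resolution 0.25), without the Mmp, Timp, Adam and Adamts genes. Each cluster was named from 6 markers a type, and a cluster of dividing cells stayed unnamed. Sums, intervals and motifs were computed in Python 3.11.15 (scipy 1.17.1, numpy 2.4.6). Levels have exact Poisson, ratios exact conditional binomial and shares exact Clopper-Pearson intervals at 95%. With 1 sample a group, no p-value is given. Where the top Mmp12 cell was left out, the median UMI count of its type was taken off the total. The intervals were tested on simulated counts that held counting error only. That simulation could not show how they hold where the UMIs of a gene lie in few cells or where hearts differ. The members, gene lists and markers were chosen with earlier results of these data known. Named were the 10 members, the 3 genes most like each, and the pathway genes past the fold in the TAC-2w section or among the 3 largest and 3 smallest ratios in the TAC-6w section. Alternatives varied the total, fold, minimum count, spots and cells kept, doublets, naming, resolution and depth.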

Additional observations from a re-analysis of the deposited data

Results flagged for a closer look

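Mmp3 and Timp1 lay past the 1.5-fold on opposite sides of sham in different sections. Mmp3 stood at 0.374, 2.25 and 0.312 times sham in the TAC-2w, TAC-4w and TAC-6w sections, and Timp1 at 0.416, 3.50 and 2.35 times. Only the TAC-2w section shared a batch with sham, and with 1 section a group the difference between time points was not tested.

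In macrophage-like cells Mmp14 stood at 0.567 times sham in the TAC-2w library and at 4.53 times in the TAC-4w library, from 67, 53 and, in sham, 98 UMIs. The difference was not tested.

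The 2 large fibroblast-like clusters lay on opposite sides of sham at TAC-6w for 3 genes, with intervals that left out 1. Mmp2 stood at 1.67 in cluster 0 and 0.934 in cluster 1, Timp3 at 0.604 and 1.11, and Timp2 at 0.974 and 1.15. These differences between clusters were not tested either.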

How the results depend on the processing

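Of 71 counts recomputed under an alternative, 51 stayed within 1.5 times the reported count. Of 589 ratios to sham of single genes, 420 stayed within their counting interval, 157 moved and 12 that had been past the fold crossed 1, 4 of these among the 516 under alternatives chosen at the start. A ratio inside the fold that crossed 1 is counted as moved. For the counts that follow in this paragraph, no share over all genes was taken under the alternative, so they show only how the calls of the members moved. A gene that reaches the lower minimum only where it is high was in part picked for that level or for depth. With a minimum of 20 UMIs, 4 and 5 members were past the fold in the TAC-2w and TAC-4w sections (2 and 3 reported), 2 in fibroblast-like cells at TAC-4w (1) and 2 in macrophage-like cells at TAC-6w (1). With a 2-fold limit there were 2 in the TAC-6w section (4), 0 in fibroblast-like cells at TAC-6w (2) and 0 in macrophage-like cells at TAC-2w (2) and TAC-6w (1). With cells named by their own score there were 1 and 2 in fibroblast-like cells at TAC-2w and TAC-4w (0 and 1), 1 in macrophage-like cells at TAC-2w (2), and 5 genes with the same top type in all libraries (9), or 4 with no filter on cells. Without mitochondrial and ribosomal features there was 1 in fibroblast-like cells at TAC-6w (2), and without removal of doublets there were 6 in macrophage-like cells at TAC-6w (1). With the top 20% of spots, 2 genes were higher in endocardial and large-vessel rich spots of all sections (1), and Mmp14 there turned to 1.02 in TAC-4w.

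Alternatives added after the data were seen compared single clusters. Members past the fold were then 2 and 0 in clusters 0 and 1 at TAC-4w (1) and 4 and 1 at TAC-6w (2). The shares over all genes at TAC-6w are given above, and none were taken at TAC-4w. Ratios past the fold that crossed 1 were Timp4 in fibroblast-like cells at TAC-4w (0.340 in cluster 0), Mmp2 (0.934 in cluster 1) and Timp3 (1.11 in cluster 1 and 1.07 in cluster 10) at TAC-6w, Timp4 in endothelial-like cluster 4 (0.803 at TAC-4w and 0.753 at TAC-6w) and Mmp8 in neutrophil-like cluster 5 (0.635 at TAC-2w and 0.967 at TAC-4w). Mmp3 in fibroblast-like cells, inside the fold, crossed 1 too (0.770 in cluster 0 at TAC-4w, and 1.35 and 1.40 in clusters 0 and 1 at TAC-6w). Among the other alternatives, Timp2 in dendritic-like cells at TAC-6w turned to 1.88 with naming by score, Mmp14 in endothelial-like cells at TAC-4w to 1.03 with a mitochondrial share under 5%, and, with cells thinned to 1000 UMIs, Mmp2 in endothelial-like cells at TAC-6w to 1.55 and Mmp9 in macrophage-like cells at TAC-4w to 1.08. The cause was not tested. Depth limits Mmp8, Mmp9 and Mmp12 in the sections, every gene in cardiomyocyte-like barcodes, and Mmp12 in dendritic-like cells, where single cells decide the level. Mmp12 in macrophage-like cells and Timp1 in fibroblast-like cells also rested in part on single cells.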

Other observations

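When each cell was named by its own marker score, cells scored as mural had Timp1 at 265, 897 and 1175 CPM at 2, 4 and 6 weeks after TAC, beside 222 and 278 CPM in cells scored as fibroblast at 2 and 4 weeks. Cells scored as lymphatic endothelial had 278 CPM in sham and 950.1 CPM in TAC-6w, beside 259 CPM in the cells of sham scored as fibroblast. Other genes of fibroblast-like cells were high under these names too. Mmp2 and Timp2 stood at 343 and 1119 CPM in cells of TAC-4w scored as mural. In cells of TAC-6w scored as lymphatic endothelial they stood at 542 and 1405 CPM. The mural-like cluster of sham had 38.5 CPM of Mmp2. Whether these names hold for the cells was not tested. In the clusters, mural-like cells had 20.1 and 10.6 CPM of Timp1 in sham and TAC-2w, and 177 CPM in the 19 cells of TAC-6w.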
